A study of Arabidopsis thaliana with 2 samples.

Results

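Subtilases are serine proteases of the subtilisin fold, and this account covers how their transcripts differed from wild type in rosette leaves of *Arabidopsis thaliana* that over-expressed NST1. The family list held 56 loci. A gene was taken as measured if the platform annotation gave it a probe that names exactly 1 gene, and 31 of the 56 loci had such a probe, 1 probe each. They were 31 of 9335 probes with 1 gene and of 22575 probes in all. RNA came from plants 2 weeks old, grown in 16 h light and 8 h dark without further treatment. Plant 36 and plant 44 were independent T1 transformants, each carrying NST1 under the 35S promoter, which is active in most tissues, and each was set against wild-type plants on its own array of 2 colours. The over-expressor was labelled with Cy5 and wild type with Cy3 on both arrays, so dye and genotype cannot be told apart. NST1, a transcription factor of the NAC family, turns on the thickening of secondary walls, and the labels describe ectopic thickenings in the above-ground organs of over-expressors.

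Most plant subtilases are made as inactive precursors, enter the secretory pathway and act in the cell wall space after their propeptide has been removed. There they cut peptide hormone precursors, wall-modifying enzymes and other secreted proteins, and members have been linked to stomatal patterning, cuticle formation, organ shedding, seed coat mucilage, immunity and xylem. Many lie in tandem runs of closely related genes. Some NAC factors related to NST1 are known to switch on proteolysis and wall synthesis together in cells that form vessels. The comparison asks which of these proteases differ when NST1 is made in leaves.

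Each value is the authors' deposited log ratio of 1 probe on 1 array. It was read as log10, likely of over-expressor over wild type, because neither base nor centring nor direction is stated in the labels. Folds hold only if the base is 10. No named probe stood for NST1, so neither direction nor over-expression could be checked on it. The tests were limma's moderated tests of the mean ratio against 0 over all 22575 probes, adjusted after Benjamini-Hochberg, and probes with an adjusted p under 0.05 are said to have risen or fallen. Wild type counted as 1 control sample whose own spread does not enter. The p-values rest on the spread between the 2 plants, which limma's prior draws toward a spread shared by all probes. The ratios hold no level of a transcript, so the leaf identity of the samples could not be checked on marker levels.

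The family did not move as a block. Of the 31 measured subtilases, 3 rose, 2 fell and 26 did not pass the threshold. Among all probes with 1 gene, 9.99% rose and 12.4% fell, against 9.68% and 6.45% of the subtilase probes, so the shares called were no larger in the family than in the background. The counts depend on the setting, with 4 that fell when arrays were centred or scaled, the prior was robust or probes at 0 were left out. When only probes of 1 gene were fitted, 5 rose and 5 fell. The 9.99% and 12.4% belong to the fit described above, and no such shares are given for the other settings. Without limma's prior 0 passed, with 5 at an unadjusted p under 0.05, and SBT1.3, AT1G30600 and ATSBT5.2 then had adjusted p of 0.241, 0.262 and 0.242. The median subtilase log ratio was -0.014, with quartiles of -0.0663 and 0.0878, beside a median of 0.001 with quartiles of -0.065 and 0.079 over all probes with 1 gene. By plant, the median was -0.005 in plant 36 and -0.016 in plant 44. On both arrays, 11 members (35.5%) lay above 0 and 15 (48.4%) below 0, beside 42.2% and 41.0% of all probes with 1 gene. In 5 members (16.1%) the plants had opposite signs, beside 15.7% of all probes with 1 gene. The mean of 20 members (64.5%) lay within 0.1 of 0, beside 61.6% of all probes with 1 gene.

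**Figure D1:**
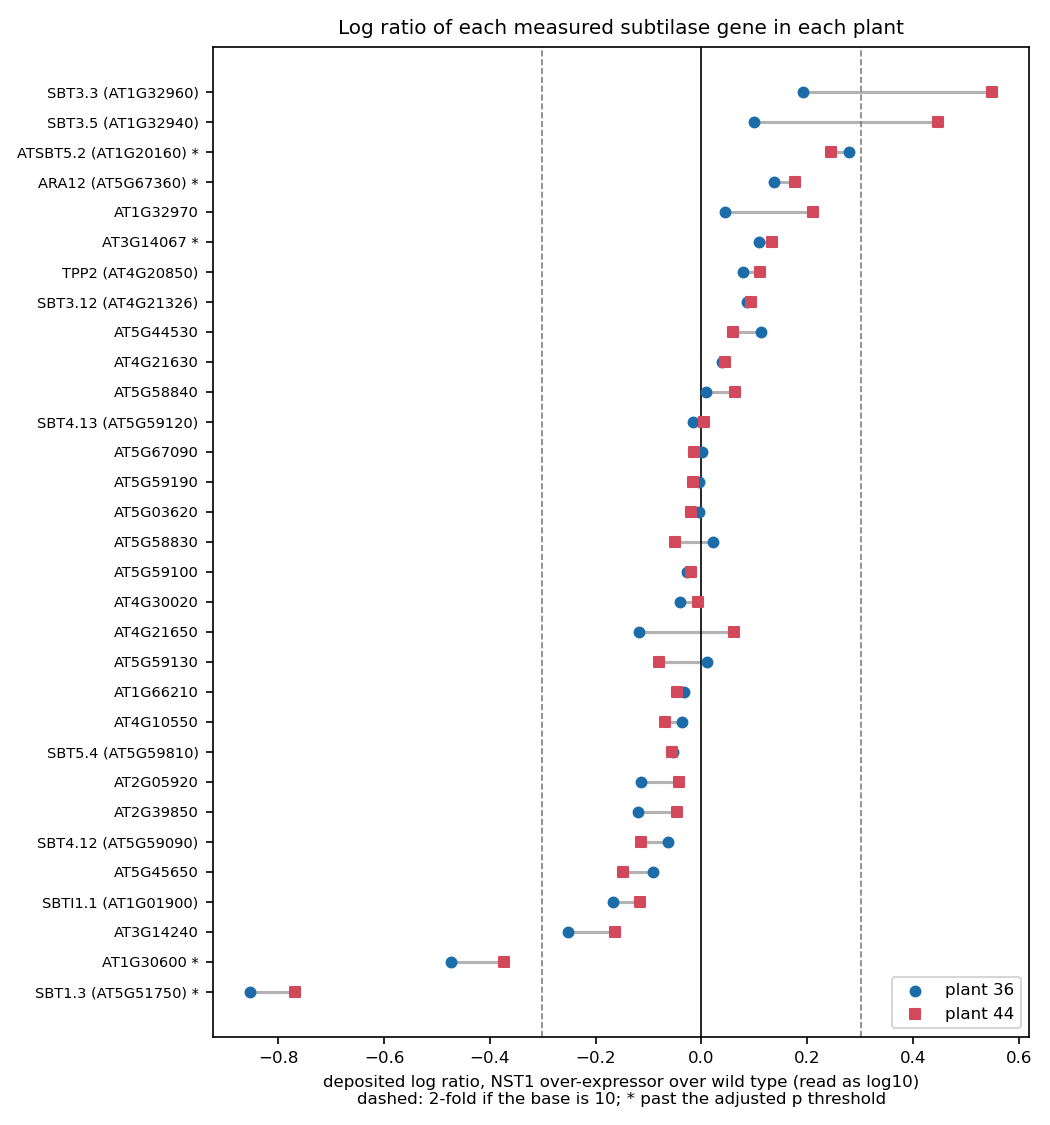
Log ratio of over-expressor over wild type (x axis, read as log10) for each of the 31 measured subtilase genes (y axis, ordered by mean), with plant 36 as circles, plant 44 as squares, dashed lines at 2-fold and asterisks for the 5 genes past the threshold. SBT1.3 and AT1G30600 lie beyond the lower line in both plants, and SBT3.3 and SBT3.5 lie beyond the upper line in plant 44 alone.

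At or beyond 2-fold on both arrays, 2 members were lower and 0 were higher, where 2.44% of all probes with 1 gene were lower and 2.71% higher. At 1.5-fold on both arrays, and at 2-fold with only the array of plant 44 counted, 2 were lower and 2 higher. Shares of all probes at these limits are not given. The widest values of the family reached -0.853 and 0.55 on a single array, both from members described further on.

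**Figure D2:**
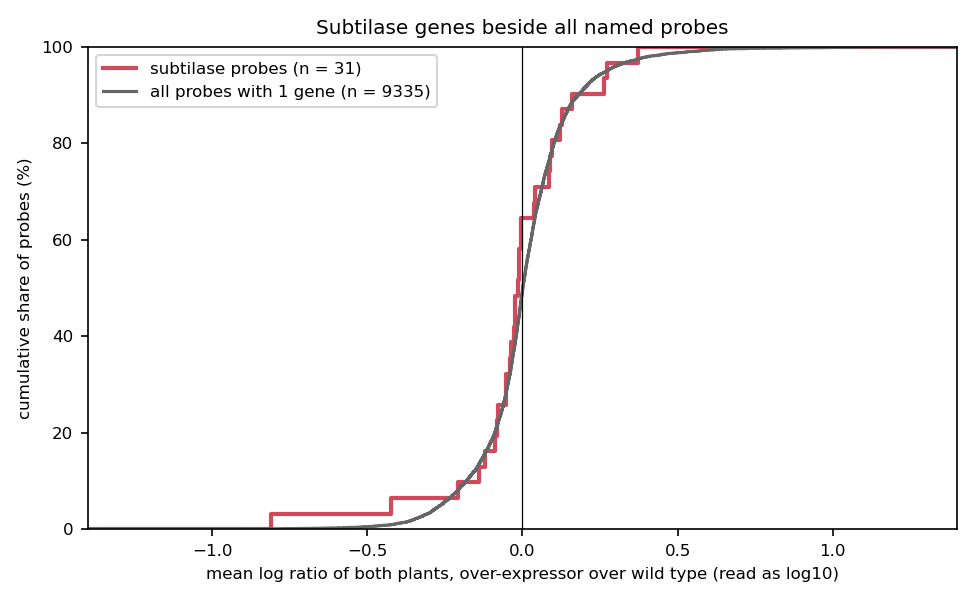
Cumulative share of probes (y axis, %) by mean log ratio of both plants (x axis, read as log10) for the 31 subtilase probes and for all 9335 probes with 1 gene. The curves run close together between the quartiles, and the subtilase curve starts with the separate step of SBT1.3 at -0.81.

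SBT1.3 (AT5G51750, chromosome 5) was the lowest subtilase. Its log ratio was -0.853 in plant 36 and -0.768 in plant 44, a mean of -0.81 ± 0.06 (SD, n = 2 plants). Both plants were thus low by a like amount, at 6.46-fold lower on average than wild type if the base is 10. The 95% interval of the mean was -0.925 to -0.696, and limma gave an adjusted p of 0.0217. Only 0.0536% of the probes with 1 gene had a lower mean, and 0.3% had a mean farther from 0 in either direction.

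AT1G30600 (chromosome 1), known here by its locus only, was the other subtilase that fell. Its log ratio was -0.473 in plant 36 and -0.373 in plant 44, a mean of -0.42 ± 0.07 (SD, n = 2 plants), or 2.65-fold lower. Its interval, -0.554 to -0.292, lay wholly above that of SBT1.3 (adjusted p = 0.034). The next lowest member, AT3G14240 (chromosome 3), lay at -0.253 in plant 36 and -0.163 in plant 44, and did not pass (mean -0.21, adjusted p = 0.0588).

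ATSBT5.2 (AT1G20160) gave the highest mean among the 3 subtilases that rose. This extracellular subtilase cleaves the precursor of the stomatal peptide EPF2 and takes part in maturing the abscission peptide IDA. Its log ratio was 0.28 in plant 36 and 0.246 in plant 44, a mean of 0.26 ± 0.02 (SD, n = 2 plants), or 1.83-fold higher. The plants lay close together, the 95% interval was 0.198 to 0.328, and the adjusted p was 0.0302. Of the probes with 1 gene, 94.7% had a lower mean.

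Of 6 listed markers of guard cells and their precursors, 2 were measured and both fell, where 12.4% of all probes with 1 gene fell. MUTE, a bHLH factor of the guard mother cell transition, lay at -0.424 in plant 36 and -0.408 in plant 44 (adjusted p = 0.0203). AT1G22690 lay at -0.394 in plant 36 and -0.345 in plant 44 (adjusted p = 0.0279). In whole leaves, fewer cells of a type and less RNA per cell cannot be told apart. The part of these cells in the subtilase values was not tested.

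ARA12 (AT5G67360), which is needed for the release of seed coat mucilage, also rose. Its log ratio was 0.138 in plant 36 and 0.178 in plant 44, a mean of 0.16 ± 0.03 (SD, n = 2 plants), or 1.44-fold higher (adjusted p = 0.0445). AT3G14067, known here by its locus only, lay at 0.109 in plant 36 and 0.134 in plant 44, a mean of 0.12 ± 0.02, or 1.32-fold higher (adjusted p = 0.049). Both shifts were small, and both genes lost the call when a change had to exceed 1.2-fold, with adjusted p = 0.112 for ARA12 and 0.203 for AT3G14067. AT3G14067 also lost it when the 463 probes below -1.2 on both arrays were left out of the fit (adjusted p = 0.051). Only 25 probes with 1 gene lay outside -1 to 1 on an array, so most of the 463 were not among the probes with 1 gene.

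The highest means of the family came from a tandem run on chromosome 1, from AT1G32940 to AT1G32980, in which the plants differed. SBT3.3 (AT1G32960), a subtilase that primes immune responses, had a log ratio of 0.193 in plant 36 and 0.55 in plant 44, which is 1.56-fold and 3.55-fold higher than wild type. SBT3.5 (AT1G32940), known for processing a pectin methylesterase in roots, had 0.099 in plant 36 and 0.448 in plant 44, which is 1.26-fold and 2.81-fold higher. Their neighbour AT1G32970 had 0.044 in plant 36 and 0.212 in plant 44. All 3 measured genes of the run were above 0 in both plants, as were 42.2% of all probes with 1 gene. All 3 were also higher in plant 44 than in plant 36, as were 49.1% of all probes with 1 gene and 61.3% of the measured subtilases.

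None of the 3 passed the test, and their plants lay far apart. The mean of SBT3.3 was 0.37 ± 0.25 (SD, n = 2 plants) with a 95% interval of -0.0633 to 0.806 (adjusted p = 0.142). For SBT3.5 it was 0.27 ± 0.25 with an interval of -0.152 to 0.699 (adjusted p = 0.203), and for AT1G32970 it was 0.13 ± 0.12 (adjusted p = 0.217). The value in plant 44 exceeded that in plant 36 by 0.357 in SBT3.3, or 2.28-fold, and by 0.349 in SBT3.5, or 2.23-fold. They were the 2 of 31 subtilases that were 2-fold or more higher in plant 44 than in plant 36, where 0.953% of all probes with 1 gene were. In the other direction, 0 of 31 subtilases were 2-fold or more higher in plant 36, where 0.214% of all probes with 1 gene were. Each plant had 1 array, so no difference between the plants was tested. Probe sequences were not used here, so signal from a near-identical neighbour cannot be told apart from that of the named gene.

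**Figure D3:**
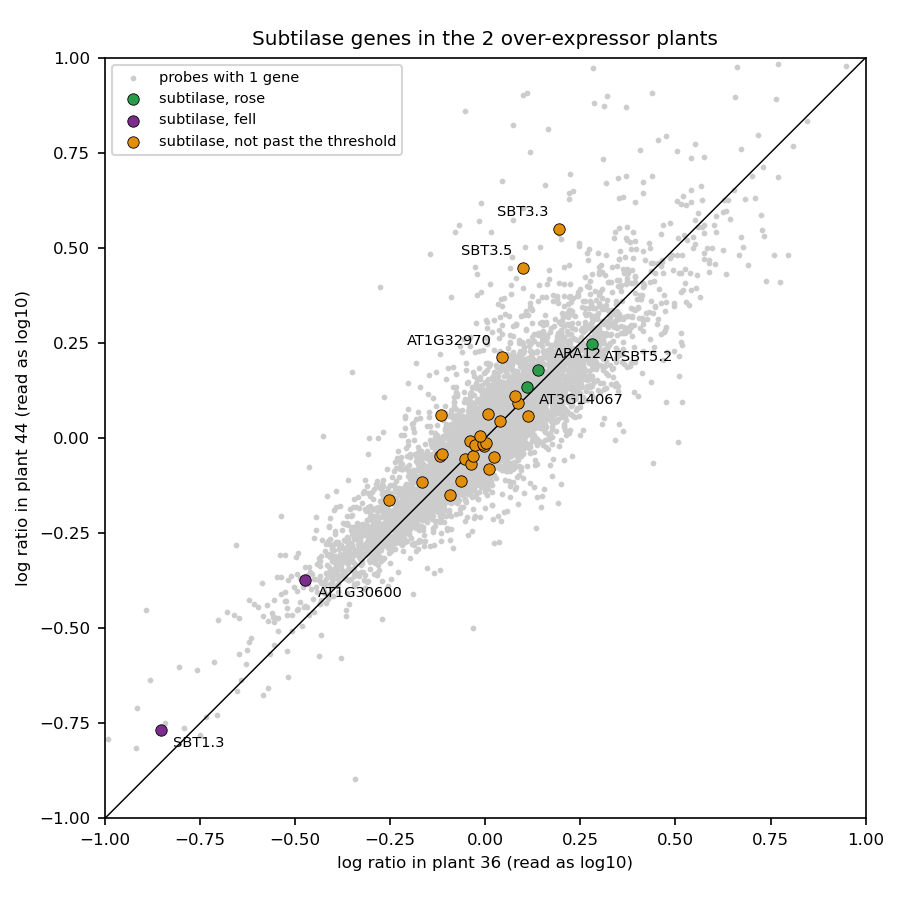
Log ratio in plant 36 (x axis) against plant 44 (y axis), read as log10, for all probes with 1 gene (grey) and for subtilases by call (colours), with the line of equal values. The axes end at -1 and 1, which leaves out 25 grey probes. SBT3.3 and SBT3.5 stand above the line. The 5 genes past the threshold lie nearer to it, which the test favours because it rests on the spread between the plants.

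Of the 56 loci, 31 lay in 9 runs with at most 5 annotated genes between members, and 16 of those 31 were measured. Among the 16, ATSBT5.2 was the single gene that rose and 0 fell, beside 9.99% of all probes with 1 gene that rose and 12.4% that fell. In the run from AT5G59090 to AT5G59190 on chromosome 5, all 5 measured genes had means between -0.089 and -0.005. In the run from AT4G21630 to AT4G21650, AT4G21650 lay at -0.117 in plant 36 and 0.061 in plant 44, whereas AT4G21630 lay at 0.039 in plant 36 and 0.044 in plant 44. AT5G58830 and AT5G58840 had means of -0.01 and 0.04. The 15 measured genes outside runs held both that fell and the other 2 that rose, and the difference between genes in and outside runs was not tested.

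**Figure D4:**
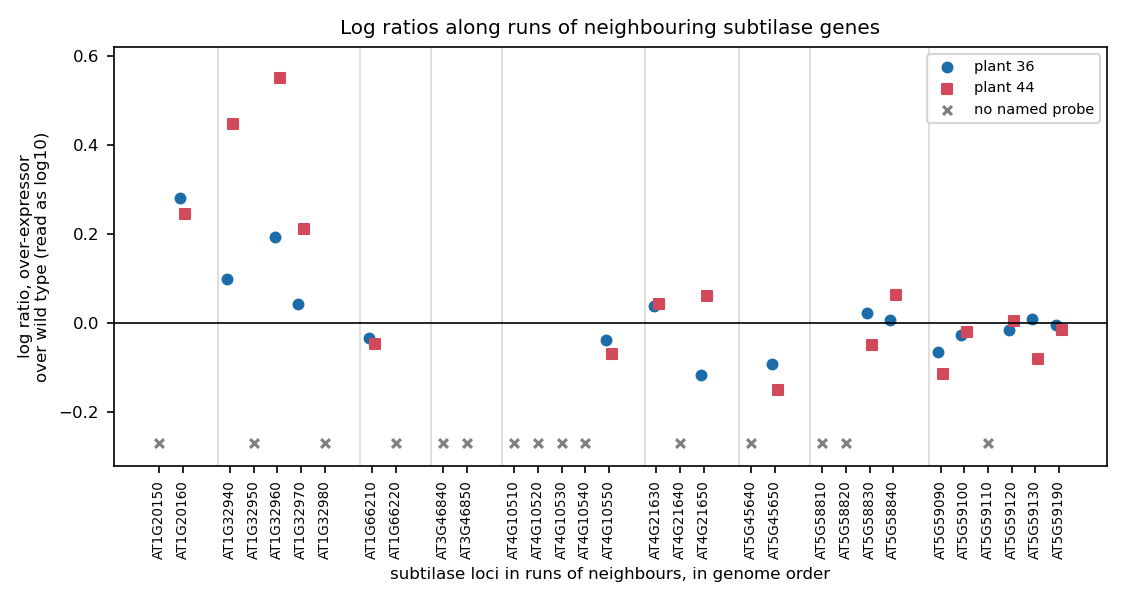
Log ratio (y axis, read as log10) of subtilase loci that lie in runs of neighbours, in genome order (x axis), with plant 36 as circles, plant 44 as squares and crosses for loci without a named probe. The run from AT1G32940 to AT1G32980 holds values between 0.044 and 0.55 and the 2 highest points, in plant 44, while ATSBT5.2 (AT1G20160) has the highest value in plant 36, at 0.28.

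Other subtilases have known links to peptide hormones. SBTI1.1 (AT1G01900), which cleaves a phytosulfokine precursor, had a log ratio of -0.167 in plant 36 and -0.116 in plant 44. Both values were below 0 and the mean of -0.14 ± 0.04 (SD, n = 2 plants) missed the threshold (adjusted p = 0.0573). SBT4.12 (AT5G59090) and SBT4.13 (AT5G59120) act with ATSBT5.2 on the IDA precursor. SBT4.12 lay at -0.064 in plant 36 and -0.114 in plant 44 (adjusted p = 0.0991). SBT4.13 lay at -0.015 in plant 36 and 0.005 in plant 44, with a 95% interval of the mean of -0.0609 to 0.0509. SBT5.4 (AT5G59810), whose over-expression gives shoots like those of clavata mutants, lay at -0.053 in plant 36 and -0.055 in plant 44 (adjusted p = 0.106).

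In all, 8 members had an unadjusted p under 0.05 without passing the adjusted threshold, 5 with a negative and 3 with a positive mean. With the 5 that passed, 41.9% of the subtilases had such a p, against 46.9% of all probes with 1 gene. Besides AT3G14240, SBTI1.1, SBT4.12 and SBT5.4, the negative one was AT5G45650, at -0.092 in plant 36 and -0.149 in plant 44 (adjusted p = 0.0746). TPP2 (AT4G20850) encodes tripeptidyl peptidase II, a large peptidase of the cell interior that trims peptides. It lay at 0.079 in plant 36 and 0.111 in plant 44 (adjusted p = 0.0694). SBT3.12 (AT4G21326) lay at 0.086 in plant 36 and 0.093 in plant 44 (adjusted p = 0.0582), and AT5G44530 at 0.113 in plant 36 and 0.059 in plant 44 (adjusted p = 0.11). Values of all 8 had 1 sign in both plants.

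The other 15 measured subtilases had means between -0.0825 and 0.0415 and single values between -0.119 and 0.064. Of these, 8 were below 0 on both arrays, 2 above 0 on both, and 5 of opposite sign. Genes of opposite sign could not have an unadjusted p under 0.05, so finding them here is no result. The adjusted p of the 15 lay between 0.146 and 0.824. AT2G39850 and AT2G05920 were at the lower end, with means of -0.0825 and -0.0785. AT4G10550 lay at -0.053, AT1G66210 at -0.0395, AT5G59130 at -0.0355 and AT4G30020 at -0.0235. AT5G59100, AT5G03620, AT5G59190 and AT5G67090 had means between -0.023 and -0.006. The widest 95% interval among the 15 was that of AT4G21650, -0.249 to 0.193, so a mean change within it is not excluded for that gene.

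The 25 loci without a named probe were not analysed here. They include SDD1, a regulator of stomatal density, ALE1, which acts in forming the leaf surface, XSP1, a peptidase first found in xylem, and AIR3, an auxin-induced gene of lateral root formation. SLP2, SLP3 and UNE17 were also among them, as was the transcribed pseudogene AT5G58810.

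Genes that work with subtilases, or that carry out other proteolysis, were taken from 12 lists of 116 loci, of which 23 were measured. Of the 23, 4 rose, 1 fell and 18 did not pass, where 9.99% of all probes with 1 gene rose and 12.4% fell. The number that rose was 8 or 9 with centring, scaling, only probes of 1 gene fitted or probes at 0 left out, and 0 without limma's prior. No shares of all probes are given for these settings, so these numbers cannot be set beside the 9.99%. The median log ratio of the 23 was 0.1 beside 0.001 for all probes with 1 gene. Lists of IDA peptides, stomatal peptides, cuticle genes and NST1 with other wall regulators had 0 measured members.

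Among peptide precursors, RALFL34 (AT5G67070), a rapid alkalinization factor, fell, with -0.245 in plant 36 and -0.239 in plant 44 (adjusted p = 0.0279). It was 1 of 5 measured genes of its list, and the other 4 did not pass. RALFL33, whose precursor is of the same family, had a mean of 0.11, and the receptor kinase FER, which binds such peptides, 0.1. ANX1 lay at 0.07. THE1, a related wall-sensing kinase, lay at 0.005 in plant 36 and 0.263 in plant 44. In the list of phytosulfokine genes, the single measured one was PSY1R, at 0.182 in plant 36 and 0.111 in plant 44 (adjusted p = 0.0708). It encodes a receptor named for another peptide, PSY1. Of CLE and related signalling genes, CLE41 and the receptor GSO1 had means of -0.02 and -0.05, and neither passed.

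S1P (AT5G19660), the site-1 protease of the Golgi, is a subtilase that the family list left out. It lay at -0.005 in plant 36 and -0.015 in plant 44 (adjusted p = 0.624). BZIP17 and BZIP28, membrane-bound factors of the stress response that it cleaves, had means of 0.1 each, with adjusted p of 0.0893 and 0.0529. Of 2 measured genes of the inhibitor list, AT1G71950 lay at 0.219 in plant 36 and 0.131 in plant 44 (adjusted p = 0.0699) and SERPIN1 at a mean of 0.05. The 2 measured genes of the pectin methylesterase list, ATPMEPCRD and AT1G23200, had means of -0.01 and 0.07 and did not pass.

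Lists of other proteolysis held the 4 genes that rose. Both measured genes of the list of vessel proteases and nucleases rose, of 8 listed, beside 9.99% of all probes with 1 gene. The lists were chosen with earlier results of these data known, so such counts describe the genes and do not test the lists. The serine carboxypeptidase gene scpl48 lay at 0.381 in plant 36 and 0.515 in plant 44 (adjusted p = 0.0388), and AT4G04460 at 0.397 in plant 36 and 0.497 in plant 44 (adjusted p = 0.0326). Of 6 measured genes of the list of papain-like and vacuolar processing proteases with their inhibitors, 2 rose, 0 fell and 4 did not pass, beside shares of 9.99% that rose and 12.4% that fell among all probes with 1 gene. GAMMA-VPE, a vacuolar processing enzyme, rose to 0.376 in plant 36 and 0.321 in plant 44 (adjusted p = 0.0296). AT5G05110, entered in the list with the inhibitors and not with the proteases, rose to 0.466 in plant 36 and 0.469 in plant 44 (adjusted p = 0.018). AT4G01610 had a mean of 0.31 (adjusted p = 0.0555), BETA-VPE 0.22, ALPHA-VPE 0.08 and the cystatin CYS1 0.03. The difference between these genes and the subtilases was not tested.

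**Figure D5:**
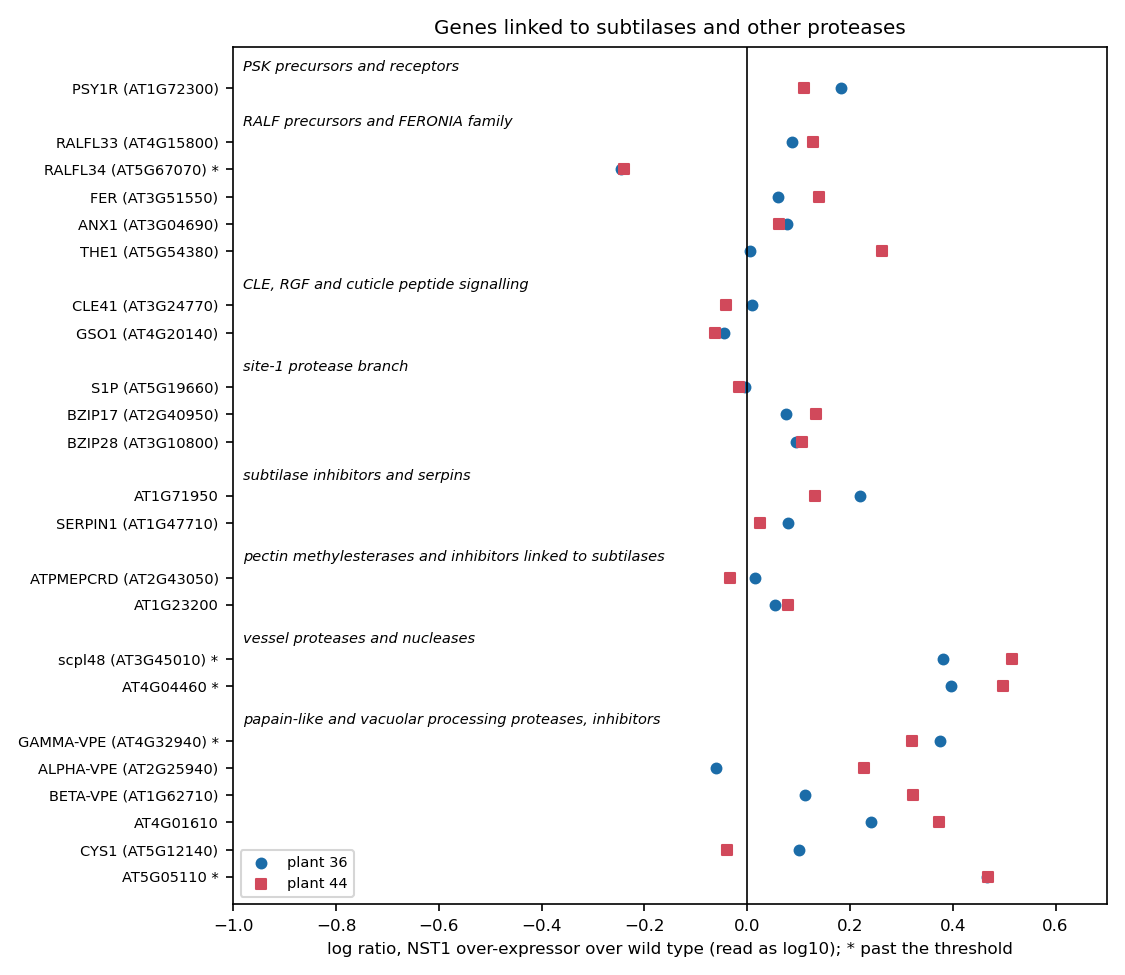
Log ratio of over-expressor over wild type (x axis, read as log10) of the 23 measured genes from lists linked to subtilases and of other proteases (y axis, grouped by list), with plant 36 as circles, plant 44 as squares and asterisks for genes past the threshold. The 2 vessel genes, GAMMA-VPE and AT5G05110 lie between 0.321 and 0.515, and RALFL34 is the single gene past the threshold below 0.

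Markers of other tissues gave few measured genes. The phloem sugar transporter SWEET11, the single measured gene of 4 listed, rose to 0.325 in plant 36 and 0.324 in plant 44 (adjusted p = 0.0233). The 3 root markers had a median of -0.07 and none passed. RCA, the single measured mesophyll gene, lay at -0.22 in plant 36 and -0.082 in plant 44, and TRY, of trichomes, had a mean of -0.02, and neither passed. The xylem and flower lists had 0 measured members. The part of these tissues in the subtilase values was not tested.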

How the data were processed

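RNA of 2 NST1 over-expressor plants and of wild type was compared on 2 arrays of 2 colours, with the dyes taken from the labels. The values are log ratios as deposited by the authors, 1 per probe and array and read here as log10, with medians of -0.002 in plant 36 and -0.004 in plant 44 and limits of -2 and 2. The reading as log10 rests on these limits. The sources used here do not give the authors' steps before deposit. As the values are ratios without intensities, brightness over background is not known, and precision is limited by having 2 arrays.

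Probes were named through the platform annotation, with symbols from the TAIR10.1 RefSeq table by gene identifier. This gave 9335 probes with 1 gene, 40 with several and 13200 without a name here. Of the 31 subtilase probes, 19 carried a RefSeq transcript accession, and 17 of these stood under the same locus in the RefSeq table. Neighbouring genes were found by their order in that table. No coordinates are given, because the build behind the probes is not known here.

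Every probe was fitted in limma 3.58.1 (R 4.3.3) with an intercept only, 1 residual and 1.37 prior degrees of freedom, and values were not centred again. Alternatives were centring, scaling, other priors, other sets of probes fitted and other limits. By the rule for named genes, every measured subtilase is accounted for, with full values for those past the threshold and up to 12 others with the mean farthest from 0, and up to 4 measured genes of each list are named, and further ones are named outside that rule. The members and the lists were chosen with earlier results of these data known.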

Additional observations from a re-analysis of the deposited data

How the results depend on the processing

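Counts of subtilases that rose and fell (3 and 2) were 4 and 4 with centring and with centring and scaling, 3 and 4 with a robust prior and without probes at 0 on both arrays, 5 and 5 with only probes of 1 gene fitted, and 1 and 2 with a minimum fold of 1.2. Without probes below -1.2 on both arrays, an alternative chosen after the data were seen, they were 2 and 2. The test without a prior and an adjusted p of 0.01 gave 0 and 0, with 5 and 13 subtilases at an unadjusted p under 0.05. At 0.01 no probe with 1 gene passed at all, since the lowest limma adjusted p among them was 0.0168. AT3G14240 and SBTI1.1 gained the call under 5 settings each, SBT3.12 under 3, and TPP2 and AT5G45650 under 1. No subtilase mean changed sign under any of these settings. For the lists (4 rose and 1 fell), 8 rose with centring and without probes at 0, 9 with scaling and with only probes of 1 gene, and 0 rose and 0 fell without a prior and at 0.01. The subtilase median stayed between -0.0185 and -0.005. At 1.5-fold on both arrays 2 subtilases were higher, at 3-fold 1 was lower, and with values read as log2 0 were lower. With plant 36 or plant 44 left out, 0 to 2 were 2-fold higher, and the 2 were SBT3.3 and SBT3.5 in plant 44. Other size limits change the counts by construction. For the other settings, those with fewer fitted probes included, the cause was not tested. Except at an adjusted p of 0.01, no shares of all probes are given for the settings of this section. Calls without 1 plant were not run, since that leaves no residual degrees of freedom.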
